A study of Mus musculus with 30 samples.

Results

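Azurophil granules, also called primary granules, are the first granules a neutrophil makes. They are filled at the promyelocyte stage, when the cell still divides in the bone marrow, and the transcripts of their proteases are lost as the cell matures. A blood neutrophil therefore carries elastase protein but little elastase mRNA. In mice the spleen can also host granulocyte formation when demand is high, whereas a lymph node normally does not.

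The genes described here are 7 of the 24957 gene symbols in each of a spleen and a lymph node expression table, chosen by name from a list of azurophil granule and early granulocyte genes. Elane (neutrophil elastase), Prtn3 (proteinase 3) and Ctsg (cathepsin G) encode serine proteases of the azurophil granule. Mpo encodes myeloperoxidase, the peroxidase of the same granule. Ms4a3 encodes a membrane protein typical of granulocyte and monocyte progenitors. Cebpe and Gfi1 encode transcription factors, C/EBP epsilon, which drives the step from promyelocyte to myelocyte and the specific granule program, and GFI1, a repressor that neutrophil formation requires.

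Whole mouse organs were profiled by RNA-seq, giving 18 spleen libraries and 12 lymph node libraries. Genotypes were WT (wild type, with titles naming FVB, an inbred strain), Pad2-/- and Pad4-/-, which are knockouts of the peptidylarginine deiminase genes Padi2 and Padi4, whose enzymes turn arginine in proteins into citrulline. The promoter, cell type or clone behind the knockouts and the age of the mice are not given in the labels. Spleens of each genotype came from control mice (3 libraries) and from mice treated with imiquimod, which activates Toll-like receptor 7 (3 libraries), and lymph nodes only from imiquimod-treated mice (4 libraries per genotype). The study asked how both knockouts change the response of these organs to the agonist, in a model of lupus. One extraction text speaks only of imiquimod-treated animals, while the agent labels mark 9 spleens as control. The agent labels were followed.

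Values are RPKM, a read number divided by transcript length and by library size, as deposited. The depth in reads is unknown, and 10905 to 11332 genes of a spleen library and 11483 to 12198 of a lymph node library reached 1 RPKM. Differences are log2 fold changes of RPKM + 0.5 with the standard error of the limma fit, and "rose" or "fell" is used for a limma adjusted p under 0.05 over all genes tested in a tissue. In the knockouts the targeted gene was low as labelled, with 1 exception: among the lymph nodes labelled Pad4-/-, Padi4 stood at 0.0958 and 0.131 RPKM in replicates 1 and 2 but at 0.607 and 1.2 in replicates 3 and 4, against 0.679 to 1.05 in WT. The group is therefore called the libraries labelled Pad4-/-. Glycam1, a gene of lymph node high endothelial venules, was at 415 to 2286 RPKM in every lymph node and at most at 0.0798 in the spleens, as the tissue labels require. Of the spleen stromal genes Tlx1 and Nkx2-3, neither reached 1 RPKM in any library. Spic, also on the list of tissue markers, was at 6.23 to 15.96 RPKM in the spleens and at 12.05 to 18.89 in the lymph nodes. Its ranges thus overlapped, and the higher values were in lymph node. No listed marker was higher in every spleen than in every lymph node, so the markers gave no positive sign of spleen. All 7 members passed the filter on low values in both tissues.

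None of the 7 genes lies on chromosome 4, which holds Padi2 and Padi4. In GRCm38.p6 Prtn3 (chromosome 10, 79879667 to 79883174) and Elane (chromosome 10, 79886312 to 79888216) are neighbours on the same strand, with 3137 bases between them. Mpo lies on chromosome 11 (87793784 to 87804412), Ms4a3 on chromosome 19 (11629499 to 11640851) and Gfi1 on chromosome 5 (107716655 to 107725805). Ctsg (56099885 to 56102574) and Cebpe (54710363 to 54712174) are both on chromosome 14.

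The 4 granule enzyme genes rose together under imiquimod in all 3 genotypes, so the 250 bases before their start sites are shown, from RefSeq's GRCm38.p6 annotation. Capitals mark each GAGGAA on the strand of the gene, the core letters of many sites bound by PU.1, a transcription factor of myeloid cells.
Prtn3, chr10:79879417-79879666, plus strand: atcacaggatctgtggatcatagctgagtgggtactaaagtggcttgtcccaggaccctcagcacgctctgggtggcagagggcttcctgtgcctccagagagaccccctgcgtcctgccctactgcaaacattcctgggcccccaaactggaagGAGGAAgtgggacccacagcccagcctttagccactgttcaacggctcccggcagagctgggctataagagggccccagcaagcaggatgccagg
Elane, chr10:79886062-79886311, plus strand: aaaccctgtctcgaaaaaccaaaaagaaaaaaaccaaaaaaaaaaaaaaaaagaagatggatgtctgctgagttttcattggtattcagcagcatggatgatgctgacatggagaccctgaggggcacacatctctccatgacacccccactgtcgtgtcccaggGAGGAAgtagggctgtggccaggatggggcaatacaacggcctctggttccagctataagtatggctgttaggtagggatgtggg
Mpo, chr11:87793534-87793783, plus strand: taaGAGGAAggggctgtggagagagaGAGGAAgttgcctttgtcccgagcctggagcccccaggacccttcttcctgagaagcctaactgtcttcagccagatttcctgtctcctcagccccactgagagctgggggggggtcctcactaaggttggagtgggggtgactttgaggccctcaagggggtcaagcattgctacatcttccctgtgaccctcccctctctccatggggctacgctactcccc
Ctsg, chr14:56102575-56102824, minus strand: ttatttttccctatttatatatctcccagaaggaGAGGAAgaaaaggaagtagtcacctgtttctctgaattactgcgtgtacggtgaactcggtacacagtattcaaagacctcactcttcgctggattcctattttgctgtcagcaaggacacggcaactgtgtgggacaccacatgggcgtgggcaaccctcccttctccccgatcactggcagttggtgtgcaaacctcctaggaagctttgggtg

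In the neighbouring genes Prtn3 and Elane the match begins at similar places, position -95 in Prtn3 and -85 in Elane, counted from the start site. Mpo has matches at -247 and -224 and Ctsg at -216. Windows of 300 bases, which add the 50 bases after the start, were searched on both strands for 6 of the 7 genes. In 5 of the 6 genes a window holds GAGGAA, the exception being Gfi1, and 28.3% of all 32851 promoter windows hold it. The letters TTNNGNAA, a loose C/EBP site, occur in Gfi1 and Ms4a3 and in 40.7% of all windows. The letters TGTGGT of RUNX sites occur in Ctsg (16.8% of all windows), and AACTG of MYB sites in Gfi1, Prtn3, Mpo and Ctsg (44.8%). In Gfi1 the C/EBP match at -143 and the MYB match at -137 overlap. A match is a description of the sequence, not of binding.

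In WT spleen, imiquimod raised all 7 genes, and 6 of them by 9.86-fold to 26.7-fold on the scale of the fit. Among all 11982 genes tested 40.3% rose, and the median log2 change over all genes was 0.065. Of the genes called in either direction 54.8% were higher, or 41.8% with quantile normalization, under which the 6 members other than Gfi1 still rose. All 7 were higher without overlap between the groups, as were 41.8% of all genes. Elane was at 6.59, 13.6 and 5.25 RPKM in WT controls and at 88.0, 285 and 139 under imiquimod. The lowest treated spleen was several times above the highest control. The means were 8.47 ± 4.47 and 171 ± 103 RPKM (SD, n = 3 and 3), a 20.1-fold ratio, and the log2 fold change was 4.19 ± 0.54 (limma adjusted p = 5.27e-06).

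Prtn3, the neighbour of Elane, had the largest fold change of the 7 in WT. It went from 4.91, 11.9 and 3.64 RPKM in control to 82.3, 422 and 151 under imiquimod, a log2 fold change of 4.74 ± 0.61 (limma adjusted p = 5.74e-06). Replicate 2 of the treated group stood well above the other treated spleens, and the groups did not overlap. Ctsg was lower in level but moved as far, from 2.73, 5.14 and 1.59 to 30.9, 162 and 62.7 RPKM (4.35 ± 0.60, limma adjusted p = 1.03e-05). Mpo went from 9.67, 18.3 and 6.53 to 74.4, 270.1 and 145 RPKM (3.70 ± 0.48, limma adjusted p = 5.25e-06). In both genes replicate 2 was again the highest of its group in both conditions.

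The progenitor gene Ms4a3 rose from 1.33, 2.43 and 1.13 RPKM to 15.9, 66.9 and 28.1 (3.94 ± 0.49, limma adjusted p = 3.67e-06). Cebpe rose from 2.27, 4.04 and 2.36 to 16.1, 59.8 and 33.9 RPKM (3.30 ± 0.44, limma adjusted p = 7.82e-06). Neighbours in the order of fold change among these 6 genes lay closer than their standard errors, and their differences from one another were not tested.

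Gfi1 stood apart from the other members. Its RPKM was 2.91, 3.51 and 2.76 in WT controls and 4.32, 6.63 and 4.42 under imiquimod. The treated values were higher without overlap, but by a log2 fold change of 0.64 ± 0.20 (limma adjusted p = 0.0102). Without WT imiquimod replicate 2 the change was 0.46 (limma adjusted p = 0.0621) and with quantile normalization 0.48 (limma adjusted p = 0.0574), and neither passed. Unlike the granule genes, Gfi1 is known to be expressed outside neutrophil precursors too, in lymphocytes and in haematopoietic stem cells.

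**Figure D1:**
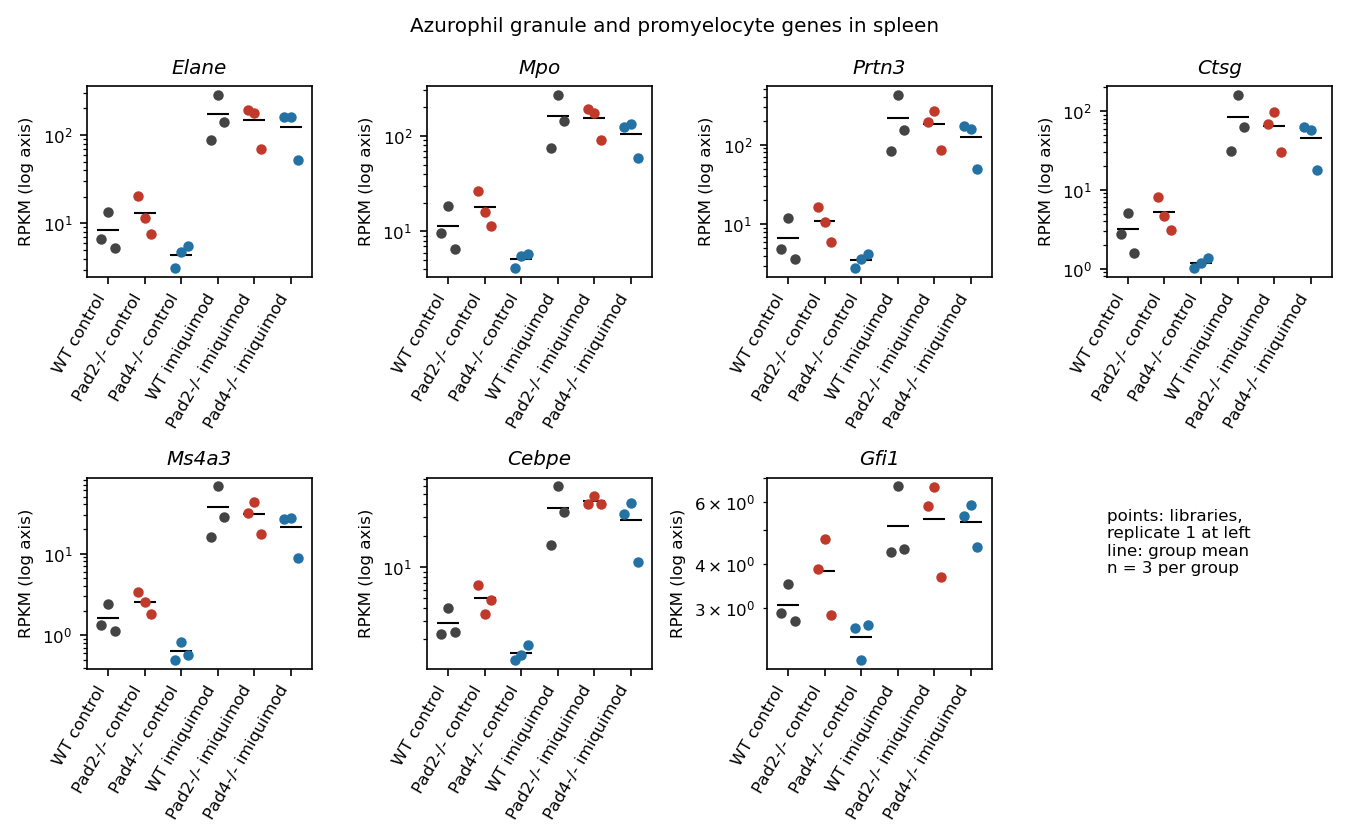
RPKM of the 7 genes (log axis) in the 18 spleen libraries by genotype and agent; points are libraries, lines group means, n = 3. Every imiquimod library lies above every control library of its genotype except for Gfi1 in Pad2-/-.

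Both knockouts responded in the same direction. In Pad2-/- spleen 6 of the 7 genes rose, where 36.3% of all genes did, and in Pad4-/- spleen 7 of 7, where 33.9% did. The same 6 and 7 genes were higher without overlap, as were 37.2% and 37.6% of all genes. Elane went from 20.4, 11.4 and 7.55 RPKM to 192, 176 and 69.2 in Pad2-/- (3.40 ± 0.54) and from 3.10, 4.71 and 5.50 to 160, 159 and 52.2 in Pad4-/- (4.52 ± 0.54). Replicate 3 was the lowest treated spleen in both knockouts, yet above all controls of its genotype. The fold changes of Prtn3 were 3.93 ± 0.61 in Pad2-/- and 4.78 ± 0.61 in Pad4-/-, and those of Mpo 3.06 ± 0.48 and 4.15 ± 0.48.

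Ctsg changed by 3.45 ± 0.60 in Pad2-/- and 4.61 ± 0.60 in Pad4-/-, Ms4a3 by 3.27 ± 0.49 and 4.09 ± 0.49, and Cebpe by 3.01 ± 0.44 and 3.68 ± 0.44. Each of the changes of these 6 genes passed in both knockouts, with limma adjusted p from 2.72e-06 to 0.000102. Gfi1 was the member that did not pass in Pad2-/-, at 3.87, 4.69 and 2.87 RPKM in control and 5.81, 6.58 and 3.69 under imiquimod (0.43 ± 0.20, limma adjusted p = 0.0686). Its ranges overlapped there. It passed without Pad2-/- control replicate 2 (limma adjusted p = 0.0307) or without Pad2-/- imiquimod replicate 3 (limma adjusted p = 0.00816). In Pad4-/- Gfi1 rose from 2.65, 2.15 and 2.68 to 5.46, 5.88 and 4.46 RPKM (0.94 ± 0.20, limma adjusted p = 0.000769).

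**Figure D2:**
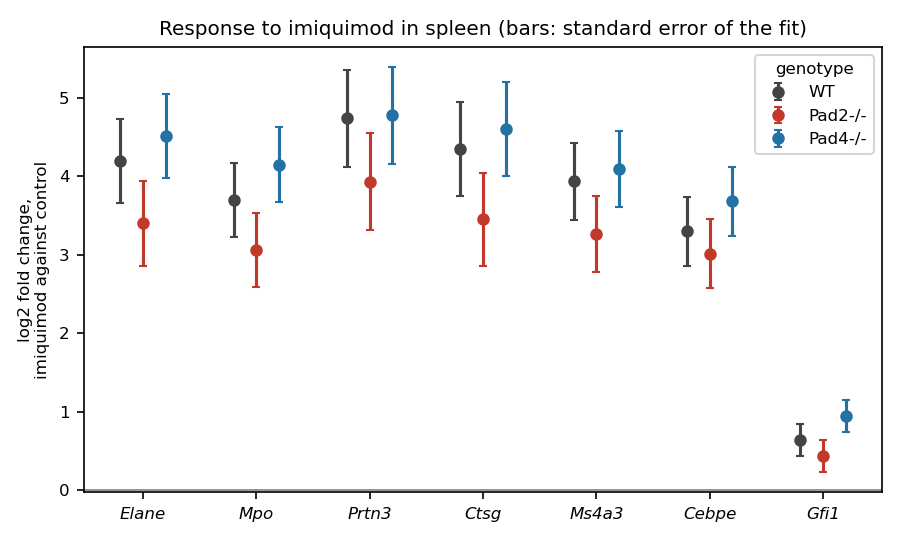
Log2 fold change of RPKM + 0.5, imiquimod against control, for each gene in WT, Pad2-/- and Pad4-/- spleen; points are estimates and bars the standard error of the limma fit (n = 3 per group). The fold changes are smallest in Pad2-/- and largest in Pad4-/- for each gene, though neither knockout's difference from WT passed its test, and Gfi1 lies below 1 in all 3 genotypes.

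The difference between the genotypes' responses did not pass for any member. The response of Pad2-/- minus that of WT ran from -0.90 ± 0.84 for Ctsg to -0.21 ± 0.29 for Gfi1, and limma adjusted p was at least 0.876. That of Pad4-/- minus WT ran from 0.038 ± 0.87 for Prtn3 to 0.45 ± 0.67 for Mpo, with limma adjusted p of at least 0.714. Of all genes 0.0334% and 0.0668% passed these tests, and 0 members did at an unadjusted p under 0.05. With 2 standard errors to each side, the Elane difference spans -2.32 to 0.73 in Pad2-/- and -1.20 to 1.85 in Pad4-/-, so that differences of 1 log2 unit were not detectable with these libraries. Within imiquimod spleens 0 members differed between genotypes in limma, and 0 had an unadjusted p under 0.05. The background there was 0.484% of genes called for Pad2-/- against WT, 7.27% for Pad4-/- against WT and 0.334% for Pad2-/- against Pad4-/-.

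In control spleens the 7 genes kept one order of group means, Pad4-/- below WT below Pad2-/-. Elane averaged 4.44 ± 1.22, 8.47 ± 4.47 and 13.1 ± 6.60 RPKM (SD, n = 3 each) in that order, and Mpo 5.15 ± 0.920, 11.5 ± 6.10 and 17.9 ± 7.82. No difference passed the limma test, and at an unadjusted p under 0.05 there were 0 for Pad2-/- against WT, 0 for Pad4-/- against WT and 7 for Pad2-/- against Pad4-/-. Of all genes 0.142% passed the limma test in the first and 0.15% in the second of these. The share of all genes at an unadjusted p under 0.05 is not given, so the 7 cannot be set against it. Neighbours in the order were not separated throughout: WT and Pad2-/- overlapped in all 7 genes (11.4% of all genes were higher in Pad2-/- without overlap), and Pad4-/- and WT overlapped in 2, Elane and Prtn3. In the other 5 every Pad4-/- library was below every WT library, which 10.6% of all genes showed.

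The ends of the order did not overlap. In 7 of 7 genes every Pad2-/- control spleen was above every Pad4-/- control spleen, as in 11.3% of all genes. Mpo was at 26.5, 15.9 and 11.3 RPKM in Pad2-/- and at 4.11, 5.51 and 5.83 in Pad4-/-. The lowest Pad2-/- library held about as much again as the highest Pad4-/- library. The log2 difference of Mpo was 1.63 ± 0.48 and its unadjusted p 0.00357, but its limma adjusted p was 0.353, and 0.192% of all genes passed as higher. Of the genes called there 71.9% were higher, or 61.1% with quantile normalization. Ctsg differed by 1.69 ± 0.60 (8.05, 4.72 and 3.05 against 1.01, 1.18 and 1.37 RPKM), Cebpe by 1.44 ± 0.44, Ms4a3 by 1.42 ± 0.49, Prtn3 by 1.41 ± 0.61, Elane by 1.39 ± 0.54 and Gfi1 by 0.51 ± 0.20, with limma adjusted p from 0.395 to 0.655.

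The outcome of the test depended on which libraries gave the spread, since all 18 spleens entered the fit. With these 2 groups alone in the fit, 6 of 7 members passed (Ms4a3 with limma adjusted p = 0.00653, Cebpe 0.00664, Ctsg 0.0130, Mpo 0.0135, Prtn3 0.0330 and Elane 0.0397), while the number of all genes called went from 32 to 707. With array weights, which weight each library by its fit, all 7 passed, with 1835 genes called. In these libraries the summed RPKM of 13 mature neutrophil genes was 1525 to 2215 in Pad2-/- and 501 to 684 in Pad4-/-, and that of 13 specific and gelatinase granule genes 760 to 1260 and 215 to 347. Mitotic genes summed to 57.5 to 63.1 and 34.8 to 42.1, and erythroid genes to 3326 to 6862 and 2839 to 4986. The part of other neutrophil stages and of cell division in the members' difference was not tested. In whole-organ RNA, fewer cells of a type and less RNA per cell cannot be told apart.

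In lymph node the 7 genes were low in WT and in the libraries labelled Pad4-/-, and 6 of them were higher in Pad2-/-, very unevenly between its libraries. Cebpe alone of the 7 passed the test. It reached 1 RPKM in the 4 Pad2-/- libraries only, so it was tested because it is high there, and with no filter it did not pass (limma adjusted p = 0.143). It stood at 3.48, 1.21, 5.03 and 7.22 RPKM in Pad2-/- and at 0.510, 0.50, 0.938 and 0.458 in WT. It was the member whose groups did not overlap (2.25% of all genes were higher without overlap). That follows from passing the filter through the Pad2-/- libraries alone, so it adds nothing to the test. The log2 difference was 1.93 ± 0.36 (limma adjusted p = 0.0267), where 0.407% of 12285 genes rose. Against the libraries labelled Pad4-/-, at 0.736, 0.295, 0.414 and 0.808 RPKM, Cebpe was higher by 1.99 ± 0.36 (limma adjusted p = 0.0212), and 0.578% of genes rose there. Again it was the member without overlap (1.51% of genes), which the filter fixed here too.

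The calls of Cebpe depended on settings and libraries. Against WT the log2 difference was 1.87 to 2.06 on leaving out any 1 WT library, 2.04 to 2.08 with other scalings, 1.56 to 2.42 with other pseudocounts and 1.32 with array weights. The call against WT ended with no filter, as above, with quantile (0.0624) or median-ratio scaling (0.0584), with only the 2 groups in the fit (0.0952), with array weights (0.0561), and without replicates 3 and 4 of the libraries labelled Pad4-/- (0.0625). It also ended on leaving out WT replicate 1 (0.102), 2 (0.0889) or 4 (0.0947), and without any 1 Pad2-/- library Cebpe no longer passed the filter. The call against the libraries labelled Pad4-/- ended with no filter (limma adjusted p = 0.110), with array weights (0.152), without both doubted replicates (0.184), and on leaving out replicate 2 (0.0781), 3 (0.0589) or 4 (0.0661) of that group.

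The granule genes had larger differences than Cebpe and larger errors. In limma 6 of 7 members, all but Gfi1, had an unadjusted p under 0.05 against WT. Against the libraries labelled Pad4-/- the same 6 did. The share of all genes at that level is not given, so these counts cannot be set against it. Elane was at 15.3, 3.58, 18.1 and 78.0 RPKM in Pad2-/- and at 2.48, 0.772, 5.45 and 2.14 in WT. Replicate 4 of Pad2-/- held several times more than the others and replicate 2 lay within the WT range. The log2 difference was 2.66 ± 0.69 (limma adjusted p = 0.153). Mpo stood at 18.3, 3.94, 19.3 and 116 against 2.34, 1.11, 5.45 and 1.49 RPKM (2.95 ± 0.73, limma adjusted p = 0.122). Prtn3 stood at 14.4, 3.97, 24.4 and 87.6 against 1.60, 1.32, 4.26 and 1.82 (2.94 ± 0.67, limma adjusted p = 0.0891), and Ctsg at 5.72, 1.59, 8.83 and 55.1 against 0.730, 0.390, 1.90 and 0.685 (2.77 ± 0.69, limma adjusted p = 0.128). In each of these 4 enzymes the same Pad2-/- library, replicate 2, overlapped WT. Without it all 4 passed, as did Ms4a3, while the number of all genes called in either direction went from 57 to 225. That library is singled out after its values were seen.

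Ms4a3 was at 2.35, 0.549, 4.54 and 20.1 RPKM in Pad2-/- and at 0.289, 0.114, 0.877 and 0.165 in WT (2.36 ± 0.64, limma adjusted p = 0.172). It passed the filter through 3 Pad2-/- libraries and 1 labelled Pad4-/-. Gfi1 was level across the genotypes, at 2.53, 2.01, 2.07 and 2.65 RPKM in Pad2-/- and 2.88, 2.17, 2.18 and 1.79 in WT (0.040 ± 0.17, limma adjusted p = 0.931). With 2 standard errors to each side that difference spans -0.29 to 0.37.

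Against the libraries labelled Pad4-/- the other members were higher in Pad2-/- by similar amounts, Elane by 2.67 ± 0.69, Prtn3 by 2.57 ± 0.67, Mpo by 2.55 ± 0.73, Ctsg by 2.08 ± 0.69 and Ms4a3 by 1.96 ± 0.64, and none of these passed (limma adjusted p from 0.12 to 0.28). The libraries labelled Pad4-/- held 1.13 to 4.58 RPKM of Elane, 1.68 to 6.10 of Mpo, 1.65 to 6.31 of Prtn3 and 1.13 to 2.51 of Ctsg. They overlapped WT in every one of these genes. In limma 0 members differed between them and WT, with 0.00814% of all genes called and 0 members at an unadjusted p under 0.05, and the differences ran from -0.094 for Gfi1 to 0.69 for Ctsg.

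**Figure D3:**
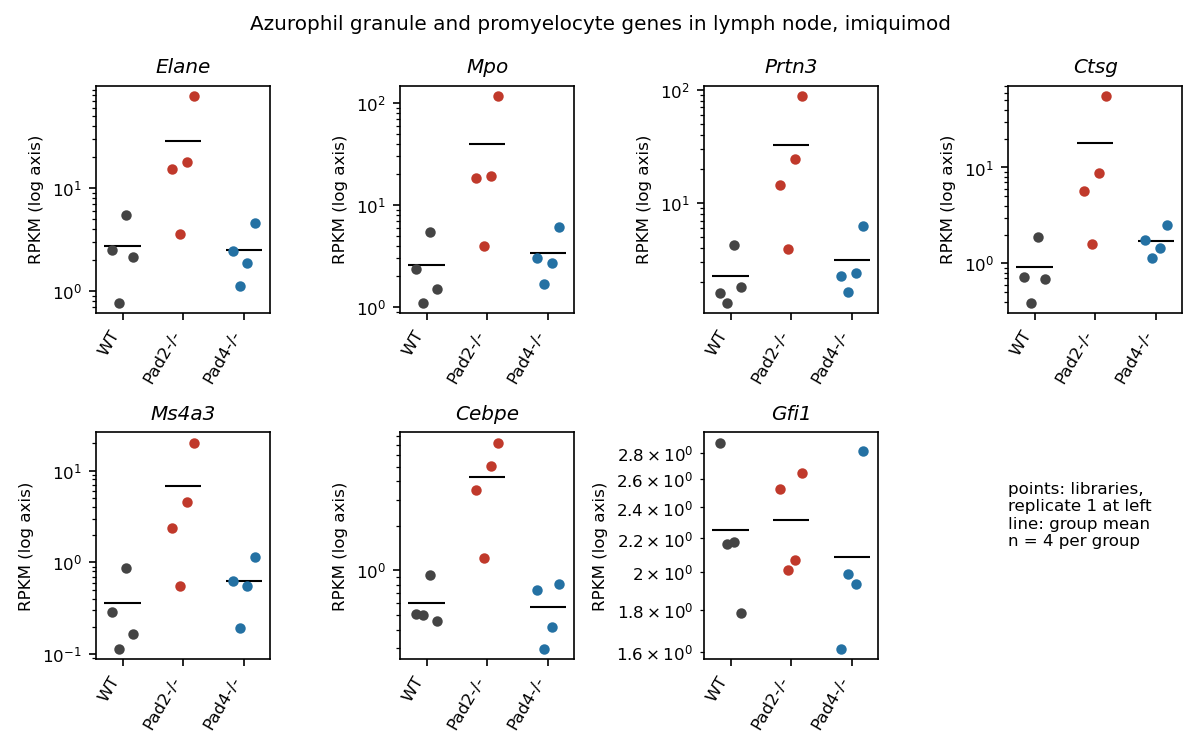
RPKM of the 7 genes (log axis) in the 12 imiquimod lymph node libraries; points are libraries, lines group means, n = 4. Pad2-/- replicate 4 is the highest and replicate 2 the lowest Pad2-/- library in every panel.

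Genes of later neutrophil stages were also higher in the Pad2-/- lymph nodes. Of 11 specific and gelatinase granule genes tested, which are made after the azurophil stage, 10 rose in Pad2-/- against WT with a median log2 difference of 2.89, against 2.66 for the 7 members and -0.12 over all genes. Of 12 mature neutrophil genes 5 rose, with a median of 1.45, beside 0.407% of all genes. The difference between these lists and the members was not tested. Summed, the mature genes reached 922 to 5755 RPKM in Pad2-/- and 305 to 751 in WT. Eosinophil genes summed to 8.48 to 12.7 and 5.96 to 7.24 RPKM, without overlap, though 3 of the 9 listed never reached 1 RPKM. Monocyte genes (411 to 969 and 481 to 587) overlapped, as did basophil and mast cell genes (15.6 to 65.9 and 21.6 to 40.4). The sums were not tested. In limma 0 of 15 mitotic, 0 of 7 progenitor and 0 of 9 erythroid genes passed in that comparison. At an unadjusted p under 0.05 there were 0, 0 and 2, and the share of all genes at that level is not given.

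Pad2-/- replicate 4 was set apart by its azurophil genes and not by its mature neutrophil genes. Elane per 1000 RPKM of S100a8, an abundant gene of mature neutrophils, was 32.4 there and 9.16, 10.5 and 7.31 in replicates 1 to 3. In WT lymph nodes this ratio was 29.1, 5.58, 20.7 and 30.9, so that replicate 4 was close to WT replicates 1 and 4 in this ratio while far above them in level. Cebpe relative to Elane was 0.0926 in replicate 4 and 0.228, 0.336 and 0.277 in the other Pad2-/- libraries. Padi4, which neutrophils express, was 8.16, 1.30, 7.91 and 4.85 RPKM in replicates 1 to 4 and thus did not peak in replicate 4. These ratios were chosen after the values were seen and are given as a description.

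**Figure D4:**
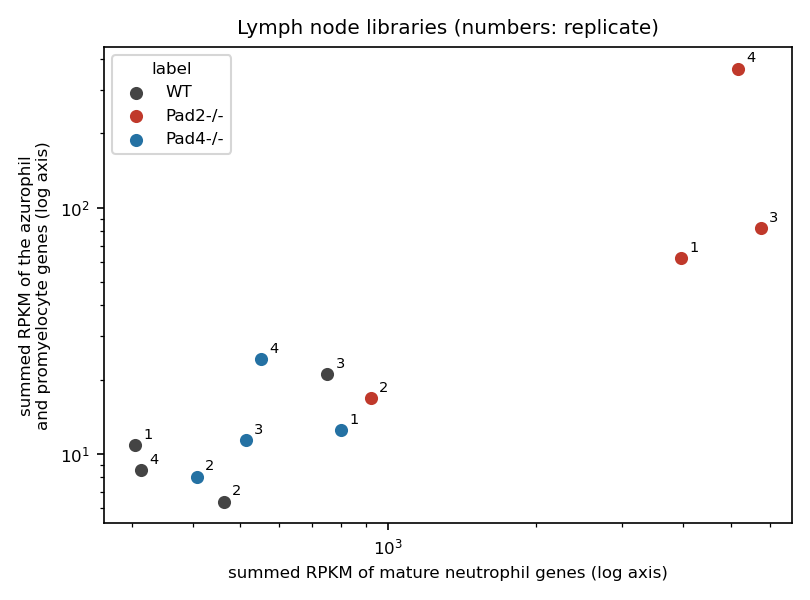
Summed RPKM of the 7 genes against the summed RPKM of 13 mature neutrophil genes (both log axes) in the 12 lymph node libraries; numbers are replicates. Pad2-/- replicates 1, 3 and 4 lie to the right, and replicate 4 is the highest although replicate 3 has more mature neutrophil RNA.

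Within several groups the members had the same highest or lowest library. In WT imiquimod spleens replicate 2 was the highest and replicate 1 the lowest for 7 of 7 genes, and in Pad4-/- imiquimod spleens replicate 3 was the lowest for 7. Among the lymph node libraries labelled Pad4-/-, replicate 4 was the highest for 7. The spread was wide: Ctsg differed 5.22-fold between the highest and lowest WT imiquimod spleen. Other groups were split. In Pad4-/- imiquimod spleens the highest library was replicate 1 for 3 genes and replicate 2 for 4, in Pad2-/- imiquimod spleens replicate 1 for 2 and replicate 2 for 5, and in WT lymph nodes replicate 3 for 6 genes and replicate 1 for Gfi1. In Pad2-/- imiquimod spleens Cebpe varied 1.2-fold (40.0, 48.0 and 40.2 RPKM) and Elane 2.78-fold.

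Ratios of members within a library take out what scales all of them. Prtn3 relative to Elane was 0.693 to 0.926 in the 9 control spleens, with a median of 0.792, and 0.936 to 1.51 in the 9 imiquimod spleens, with a median of 1.06. All imiquimod libraries were above all control libraries in this ratio, by a small margin at the nearest pair. Mpo relative to Elane lay lower under imiquimod, at 0.774 to 1.29 against 1.06 to 1.49 in control, with overlap. Ctsg relative to Elane was 0.324, 0.251 and 0.250 in the Pad4-/- control spleens, overlapping the other controls, of which WT replicate 3 was at 0.303. Over all spleens it ran from 0.250 to 0.415 in control and from 0.347 to 0.566 under imiquimod. Gfi1 relative to Elane was 0.190 to 0.853 in control and 0.0232 to 0.0854 under imiquimod. These ratios too were chosen with the values known, and no test is given.

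**Figure D5:**
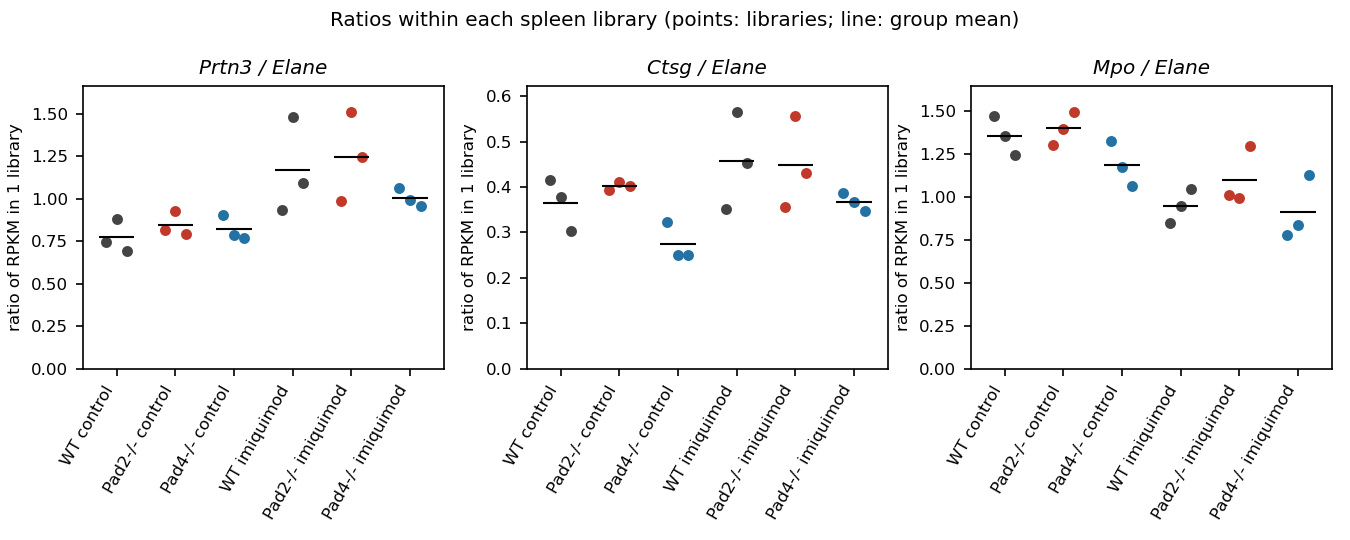
Ratio of the RPKM of Prtn3, Ctsg and Mpo to that of Elane within each of the 18 spleen libraries; points are libraries, lines group means. Prtn3 / Elane is at most 0.926 in control and at least 0.936 in imiquimod libraries, while the other ratios overlap.

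The genes whose profile over the 18 spleen libraries came nearest to the mean profile of the 7 were sought by the root mean square difference of centred log2 values. Fcnb, which encodes the granulocyte lectin ficolin B, was nearest at 0.229 log2 units. Orm1 (0.320), Mgst1 (0.323), Camp (0.325), a specific granule peptide, Anxa1 (0.330), F13a1 (0.340), Clec12a (0.349) and S100a9 (0.353) followed. The median over the other genes was 1.85. The members are part of the mean they are compared with, and still lay at 0.176 (Mpo), 0.213 (Ms4a3), 0.286 (Cebpe), 0.340 (Elane), 0.407 (Ctsg), 0.559 (Prtn3) and 1.46 (Gfi1). Ctsg, Prtn3 and Gfi1 were thus farther from it than the 8 genes named. Profiles were not scaled, so this distance counts the size of a change as well as its shape. The mean also includes the small change of Gfi1. A larger distance of Prtn3 or Ctsg therefore does not show a different pattern. In lymph node, over 12 libraries, Chil3 (0.438), Trem3 (0.488) and BC100530 (0.499) were nearest, with a median of 1.40 over the other genes and Gfi1 at 1.22.

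Genes that process, sort or accompany the azurophil proteins changed in both directions. In WT spleen 9 of 13 rose under imiquimod and 1 fell, with a median log2 change of 0.55, where 40.3% of all genes rose and 33.2% fell. Prss57, a further serine protease of the granule, rose by 2.48 ± 0.33, and Lyz2, lysozyme, by 2.90 ± 0.42. Ctsc, whose product cathepsin C activates elastase, proteinase 3 and cathepsin G by clipping their proforms, rose by 0.55 ± 0.24 (limma adjusted p = 0.0482), close to the threshold. Lyst, a regulator of lysosome and granule size, fell by 0.62. In Pad2-/- 8 of the 13 rose and 2 fell, beside 36.3% and 36.7% of all genes, and in Pad4-/- 7 rose and 2 fell, beside 33.9% and 36.1%. Their difference from the members was not tested.

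Of 12 listed inhibitors of the granule proteases, 7 were below 1 RPKM in every spleen library. Only 4 were tested in spleen, of which 3 rose in WT, where 40.3% of all genes did. Slpi, a secreted inhibitor of elastase and cathepsin G, rose by 4.77 ± 0.31 (limma adjusted p = 3.65e-09), as far as Prtn3. Serpinb1a, an intracellular inhibitor of the same proteases, was 0.31 ± 0.27 higher (limma adjusted p = 0.313) and did not pass.

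Among 17 regulators of granulocyte fate tested in WT spleen, 11 rose and 2 fell, with a median log2 change of 1.46, beside 40.3% of all genes that rose and 33.2% that fell. Cebpa, which acts upstream of Cebpe in granulocyte formation, rose by 2.58 ± 0.21 and Cebpb, tied to emergency granulopoiesis, by 2.33 ± 0.21. Gfi1b, the paralogue of Gfi1 that acts in erythroid and platelet precursors, rose by 3.57 ± 0.37, in contrast to the 0.64 of Gfi1. Csf3r, the receptor of G-CSF, rose by 1.46 ± 0.36 and Spi1, encoding PU.1, by 1.16 ± 0.20. Runx1 fell by 0.44, and Irf8, which steers progenitors to monocytes, was 0.24 ± 0.17 higher (limma adjusted p = 0.212) and did not pass.

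Many listed genes of later neutrophil stages and of other marrow lineages rose alongside in WT spleen. All 13 specific and gelatinase granule genes rose, with a median of 3.28, and 12 of 13 mature neutrophil genes, with a median of 2.93, where the 7 azurophil and promyelocyte genes had a median of 3.94. All 15 mitotic genes (median 3.48), 13 of 13 erythroid genes (median 3.41), 10 of 10 monocyte genes (median 2.16), 7 of 8 eosinophil genes (median 2.15), 6 of 9 progenitor genes (median 1.34) and 4 of 7 basophil and mast cell genes (median 0.98) rose too, beside 40.3% of all genes. Among the exceptions 1 eosinophil gene, Il5ra, fell by 0.80, and 1 mast cell gene, Cma1, fell by 2.23. The summed erythroid genes reached 6719 to 26381 RPKM against 1435 to 2954 in control. In Pad2-/- imiquimod spleens they stood at 78139, 6054 and 69178 RPKM in replicates 1 to 3, against 3326 to 6862 in control, and in Pad4-/- at 43814, 2881 and 8579, against 2839 to 4986. RPKM is a share of the mapped reads, and the part of these cell types in the members' change was not tested.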

How the data were processed

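Poly(A)-enriched RNA of frozen spleens and lymph nodes was sequenced, per the labels' protocols. Build mm10, TopHat2 2.1.0 and bcl2fastq 1.17.1 are named, per the submitters' processing notes. The tool and the annotation behind the gene values were not given in the sources used here. For 24957 gene symbols, the authors deposited RPKM values in 1 table per tissue, normalized to transcript length and mapped reads. Every one of the 30 sample columns was used. Very small non-zero values show estimated abundances, so read numbers and depth are unknown and no count test was run. The 2 tables were never tested against each other, and 0 pairs of libraries were identical.

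Groups came from the genotype, agent and tissue labels. A gene was kept if 3 or more spleen libraries, or 4 or more lymph node libraries, reached 1 RPKM (11982 and 12285 genes). They were tested on log2(RPKM + 0.5) with limma 3.58.1 in R 4.3.3, in 1 fit per tissue with an intensity trend, two-sided, with Benjamini-Hochberg adjustment over all kept genes and a threshold of 0.05. The pseudocount understates changes of low genes. A p-value sets a group difference against the spread of libraries within groups, over all groups of the tissue. Nothing in the labels says that replicates were separate animals, so this spread may be only technical. Standard errors stand after ±, unless SD is named. The fit was also run on simulated data with the same spread in every group. That run could not check the effect of unequal spread between groups.

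The members, the lists and the ratios were chosen with earlier results of these data known. Named genes are the 7 members, Padi2 and Padi4, the 8 genes nearest in profile, and examples from the lists. Promoter sequences and coordinates are from RefSeq (GRCm38.p6); 6 members matched the promoter table. Alternatives were other pseudocounts, filters, scalings and sets of libraries, array weights, no trend, a replicate block and leaving out each library.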

Additional observations from a re-analysis of the deposited data

Results flagged for a closer look

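In groups of 4 lymph node libraries, 5 of 21 sets of member values had a library whose gap to its nearest neighbour took more than 0.829 of the group's range. For normally distributed values chance passes that limit about 1 time in 20. The gaps were taken on RPKM without logs, where high values stretch the range. The 5 sets therefore cannot be compared with that rate. The sets share libraries and are not independent. Pad2-/- replicate 4 stood far above the other Pad2-/- libraries in Mpo, at 116 RPKM, and in Ctsg, at 55.1 RPKM. WT replicate 3 stood above the other WT libraries in Prtn3, at 4.26 RPKM, and in Cebpe, at 0.938 RPKM. Replicate 4 of the libraries labelled Pad4-/- stood above its group in Prtn3, at 6.31 RPKM. It is also 1 of the 2 libraries of that group in which Padi4 was near the WT level.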

How the results depend on the processing

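The rises of 6 members (all but Gfi1) under imiquimod passed in each genotype under all alternatives run. Through Gfi1 the member count ranged from 6 to 7 in WT and from 6 to 7 in Pad2-/- spleen. Larger moves were those between genotypes. Pad4-/- against WT in control spleen gave 2 called members with only both groups in the fit and 2 with array weights, against 0; Pad2-/- against Pad4-/- there gave 6 and 7, against 0, and under imiquimod 1 with array weights (Cebpe). Pad2-/- against WT lymph node, at 1, gave 0 with no filter, quantile or median-ratio scaling, only both groups, array weights, or without replicates 3 and 4 of the libraries labelled Pad4-/-, and 3 with the replicate block. Pad2-/- against the libraries labelled Pad4-/-, at 1, gave 0 with no filter, array weights or without those replicates, and 2 with the block. Leaving out 1 library gave 0 to 5 members in both lymph node comparisons, the 5 without Pad2-/- replicate 2 and 0 without any other Pad2-/- replicate, without WT replicate 1, 2 or 4, or without replicate 2, 3 or 4 of the libraries labelled Pad4-/-. Same-numbered replicates did not deviate together as a rule. Over 45 spleen pairs r ran from -0.48 to 0.61 (median 0.054, 14 over 0.1). Over 12 lymph node pairs it ran from -0.30 to 0.39 (median -0.0059, 5 over 0.1). Some same-numbered imiquimod spleens did, with r = 0.61 for replicates 1 and 0.52 for replicates 2 of Pad2-/- and Pad4-/-. Replicates 1 of WT and Pad4-/- had -0.48, and WT replicate 1 with Pad4-/- replicate 3 had 0.64. The replicate block also brought Gfi1 past the threshold in Pad2-/- spleen (limma adjusted p = 0.0256).

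Gfi1 changed sign with array weights in Pad2-/- spleen (-0.073), and in Pad2-/- against WT lymph node on leaving out a library (-0.045 to 0.14). In the 9 comparisons in which no member passed, 27 of 63 member differences changed sign under at least 1 alternative. Quantile normalization moved the median change of all genes by -0.195 in WT imiquimod spleen, by -0.111 in Pad2-/- and by 0.104 in Pad2-/- against WT lymph node, where median-ratio scaling moved it by 0.121. The unknown depth, 3 or 4 libraries a group and the large spread of treated organs limit what could be detected. The causes were not tested.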
